A study of Mus musculus with 24 samples.

Results

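Glycogen metabolism was represented by 9 genes, chosen by symbol: Ppp1r3c, Ppp1r3b and Ppp1r3d, which encode subunits that target protein phosphatase 1 (PP1) to glycogen, Ugp2, Gyg, Gys1 and Gbe1 of glycogen synthesis, and the phosphorylases Pygl and Pygb. All 9 were measured, among 17737 genes tested, by 16 probe sets that each carried 1 symbol, and all 16 passed the filter on low values. The list was drawn up around the rise of Ppp1r3c with IL-4, so the response of Ppp1r3c to IL-4, and every member's values in the vehicle cultures with and without IL-4, are given as a description. Where counts past the threshold are given for those, nothing is read from them. The arrays came from bone marrow-derived macrophages of C57Bl/6 mice, cultured for 10 days with M-CSF (20 ng/ml), which drives marrow progenitors to macrophages. Mice 4 to 6 were Pparg fl/- LysCre, with 1 loxP-flanked and 1 null Pparg allele and a Cre transgene driven by the lysozyme gene of myeloid cells. Mice 1 to 3 were Pparg+/- LysCre, with the same Cre, 1 null allele and 1 intact allele, so neither genotype was wild type. From each mouse 1 culture was grown in each of 4 conditions: 20 ng/ml IL-4 with 1 µM rosiglitazone (RSG, a synthetic agonist of the nuclear receptor PPARγ), IL-4 with vehicle (DMSO and ethanol), RSG without IL-4, and vehicle without IL-4. Cultures without IL-4 are called control here, and the 8 groups held 3 arrays each.

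Glycogen is the branched glucose polymer in which cells store glucose. UDP-glucose made by Ugp2 is the sugar donor, glycogenin (Gyg) primes the chain, glycogen synthase (Gys1) lengthens it and the branching enzyme (Gbe1) branches it, while the phosphorylases release glucose 1-phosphate. PP1 bound to glycogen by a targeting subunit dephosphorylates both sides of this balance, which activates the synthase and inactivates phosphorylase. IL-4 drives alternative activation of macrophages through the transcription factor STAT6.

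Expression is given as the deposited ratio, in which 1 is the median of the probe set over the 24 arrays, so levels of different genes cannot be compared. All 16 probe sets of the members had that median. Changes are on the log2 scale with standard errors (SE) from limma. A gene was called at a Benjamini-Hochberg adjusted p under 0.05, over all probe sets, and a change of at least 1.5-fold. Where a gene had several probe sets, the set whose replicates spread least stood for it, and values are from that set unless another is named. Whether arrays of compared groups overlapped is given as a description, because the share of all genes without overlap was not counted. The labels name mice but no batches.

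Pparg could not check the genotypes, because the position of its probe set relative to the deleted part was not given in the sources used here. Its group means were 0.790 to 2.64 in Pparg fl/- cells and 0.456 to 1.73 in Pparg+/- cells. Fabp4, a known PPARγ target, averaged 0.598 ± 0.183 with IL-4 and RSG in Pparg fl/- cells, against 0.334 ± 0.0384 with IL-4 and vehicle, and 1.06 ± 0.158 with IL-4 and RSG in Pparg+/- cells, against 0.547 ± 0.120 with IL-4 and vehicle (SD, n = 3). Its log2 change with RSG was 0.81 ± 0.23 and 0.96 ± 0.23 (SE), with limma adjusted p of 0.633 and 0.119, and the genotypes differed in it by -0.16 ± 0.32 (SE, adjusted p = 1), none of which was called. The cultures differed in cell markers with IL-4. The mean log2 ratio of 9 neutrophil genes ranged from -3.62 to -2.60 on the IL-4 arrays, against 0.42 to 1.44 on the control arrays, and of 8 stromal genes from -2.0 to -0.75, against 0.28 to 2.09. For 9 macrophage genes it ranged from -0.63 to 0.26 on IL-4 arrays, against 0.16 to 0.74 on control arrays. The mean of 5 megakaryocyte genes overlapped, at -0.72 to 0.43 on IL-4 arrays, against -1.03 to 0.13 on control arrays. The whole neutrophil list held 7 called genes, all lower, with IL-4 and RSG in either genotype, and the stromal list 4, also lower. Of the macrophage genes 2 were called lower in either genotype, and 1 was called higher in Pparg fl/- cells. Among the megakaryocyte genes 1 was called lower in Pparg fl/- cells and 1 higher in Pparg+/- cells. Of all genes 7.65% were called lower and 8.72% higher in Pparg fl/- cells, and 6.78% and 7.71% in Pparg+/- cells. In bulk RNA, fewer cells of a type and less RNA per cell cannot be told apart, and the part of these markers in the IL-4 results was not tested. The median log2 change over all genes was 0.10 to 0.13 with IL-4 and 0.10 to 0.14 between genotypes, and the alternative with centred arrays removes this shift. The array of IL-4-treated, vehicle-treated mouse 4 had a residual SD of 0.726, against 0.603 to 0.682 on the other 23, and values without it are given for Gbe1 and Pygl.

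By probe set 1433691_at, Ppp1r3c, the targeting subunit also called PTG, was close to its lowest values in every control culture. It was high in every IL-4 culture, in both genotypes and with either co-treatment. With the second set, 1425631_at, control ratios reached 1.15 and IL-4 ratios went down to 0.769, both with RSG in Pparg+/- cells. The promoter of Ppp1r3c is shown because its IL-4 response exceeded that of every other member. The sequence is the 250 bases before the start site in the RefSeq table (GRCm38.p6, chr19:36736605-36736854, minus strand), with the E-box letters CACGTG, noticed after the sequence was read, in capitals.
Ppp1r3c upstream region: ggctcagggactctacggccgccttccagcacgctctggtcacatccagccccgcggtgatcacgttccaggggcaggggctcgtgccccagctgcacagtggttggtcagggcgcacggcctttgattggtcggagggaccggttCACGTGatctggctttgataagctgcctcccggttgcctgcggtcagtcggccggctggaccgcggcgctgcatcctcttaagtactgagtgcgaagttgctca
Promoter windows of 250 bases before and 50 after the start were found for 8 of the 9 members, with 9 windows in all. None held the palindromes of STAT type, TTC and GAA with any 4 or any 3 bases between them, which lay in 6.95% and 8.3% of the 32851 promoters in the table. None held, on either strand, AGGTCA repeated in the same direction with 1 base between, the type of element bound by PPARγ with its partner RXR, which lay in 0.0396% of promoters. CACGTG, also a palindrome, lay in the windows of Ppp1r3c, Ppp1r3d and Gyg and in 7.15% of all promoters. A match is a description of letters and not a binding site. At these low shares 9 windows are too few for a missing match to be read as a lack of STAT6 or PPARγ sites.

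With IL-4 and RSG, Ppp1r3c had ratios of 10.5, 12.0 and 15.6 in Pparg fl/- cells, against 0.0523, 0.0976 and 0.173 in control cells of the same mice with RSG. In Pparg+/- cells the ratios were 1.83, 1.72 and 2.95 with IL-4 and RSG, against 0.0846, 0.0627 and 0.0440 in control cells with RSG. The IL-4 and control arrays lay far apart in both genotypes. With vehicle, the ratios were 12.6, 18.1 and 17.8 in IL-4-treated Pparg fl/- cells, against 0.0249, 0.0587 and 0.121 in control cells. In Pparg+/- cells with vehicle they were 7.53, 6.54 and 11.2 with IL-4, against 0.276, 0.0845 and 0.109 in control cells. The log2 change with IL-4 was thus 7.03 ± 0.54 with RSG and 8.15 ± 0.54 with vehicle in Pparg fl/- cells, and 5.10 ± 0.54 with RSG and 5.91 ± 0.54 with vehicle in Pparg+/- cells (SE). The size differed between probe sets. The second Ppp1r3c probe set, 1425631_at, had higher control ratios, from 0.0654 to 1.15, and its log2 change in Pparg+/- cells with vehicle was 3.16 ± 0.89 (SE), or 8.94-fold, beside 59.9-fold from the first, 1433691_at. With RSG in Pparg+/- cells the second set had ratios of 0.769, 2.53 and 3.18 with IL-4, against 0.0984, 0.341 and 1.15 in control cells, the only IL-4 comparison in which arrays of Ppp1r3c overlapped.

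**Figure D1:**
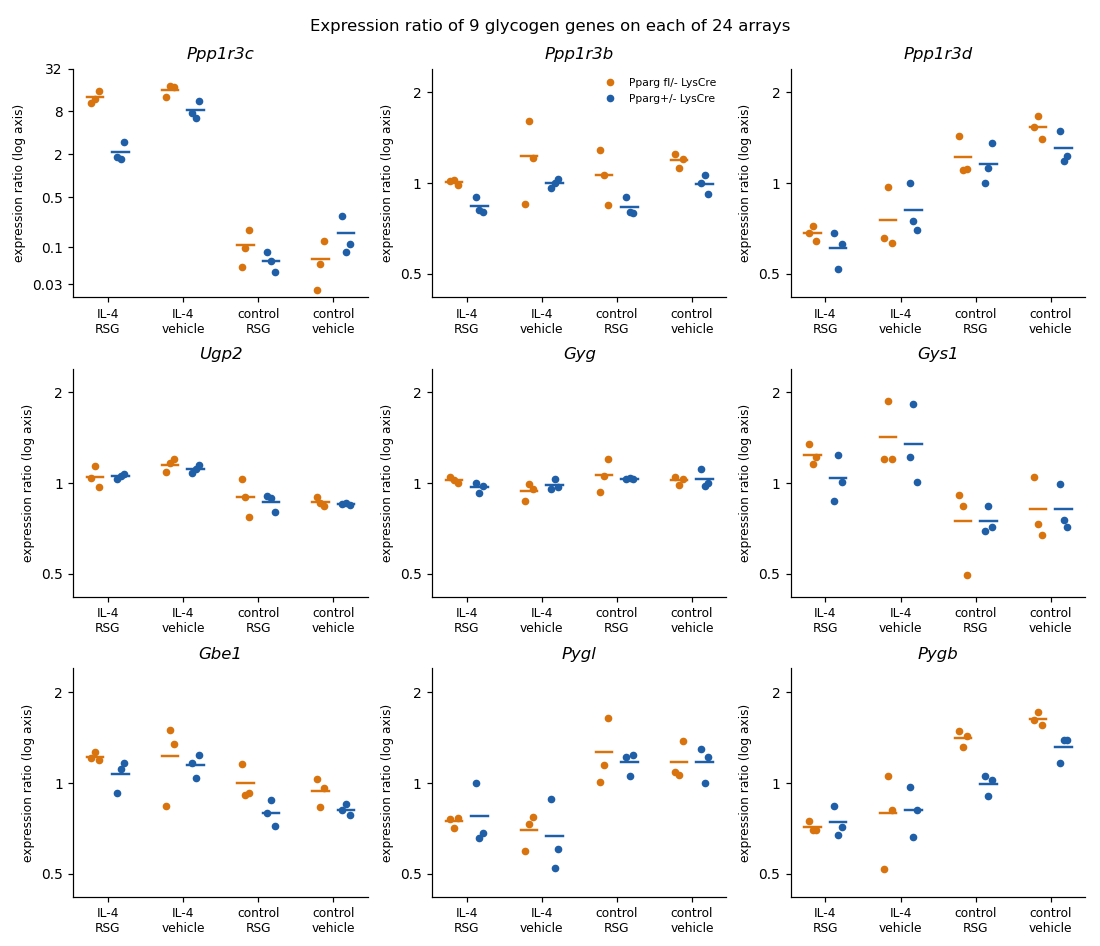
Expression ratio (log axis) of the 9 glycogen genes, 1 point per array and 24 arrays in all, by culture condition, with Pparg fl/- LysCre left of Pparg+/- LysCre and a bar at the mean of 3 mice. Ppp1r3c spans a far wider axis than the others: its group means lie between 0.0637 and 16.1, while those of the other 8 genes lie between 0.610 and 1.63.

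Of the other PP1 targeting subunits, Ppp1r3d was lower with IL-4 and Ppp1r3b had changes near 0. Ppp1r3d, which encodes a further glycogen-targeting subunit of PP1, fell with IL-4 in both genotypes. With IL-4 and RSG it had ratios of 0.682, 0.724 and 0.642 in Pparg fl/- cells, against 1.43, 1.11 and 1.12 in control cells with RSG. Pparg+/- cells had ratios of 0.681, 0.521 and 0.629 with IL-4 and RSG, against 1.00, 1.13 and 1.36 in control cells with RSG. No IL-4 array reached the lowest control array in either genotype. The log2 change was -0.83 ± 0.18 in Pparg fl/- cells, with a limma adjusted p of 0.0035, and -0.92 ± 0.18 in Pparg+/- cells, with an adjusted p of 0.0016 (SE). Without mouse 4 the Pparg fl/- change was -0.71 with an adjusted p of 0.0595, and with only the compared groups fitted the adjusted p was 0.0506. The vehicle cultures gave -1.05 and -0.69, as a description. Ppp1r3b, the subunit known from liver as GL, stayed between -0.06 and 0.01 in the 4 IL-4 comparisons, with an interval of -0.41 to 0.30 in Pparg fl/- cells and -0.35 to 0.37 in Pparg+/- cells with RSG (95%).

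Among the enzymes of synthesis, differences with IL-4 were small, and 1 of 4 genes was called in 1 of the 2 tested comparisons. Gys1, the glycogen synthase of muscle and most other tissues, had ratios of 1.35, 1.16 and 1.22 with IL-4 and RSG in Pparg fl/- cells, against 0.911, 0.839 and 0.497 in control cells with RSG. Pparg+/- cells had Gys1 ratios of 0.875, 1.24 and 1.01 with IL-4 and RSG, against 0.692, 0.838 and 0.715 in control cells with RSG. The lowest IL-4 array lay above the highest control array in both genotypes. Arrays of the second Gys1 probe set, 1450196_s_at, overlapped in both. The log2 change of Gys1 was 0.78 ± 0.26 in Pparg fl/- cells, with a limma adjusted p of 0.0436, and 0.47 ± 0.26 in Pparg+/- cells, with an adjusted p of 0.272 (SE). Mouse 6 had the lowest control ratio, and without it the Pparg fl/- change of Gys1 was 0.52 with an adjusted p of 0.296. That call was also lost without mouse 1, 3, 4 or 5 (adjusted p of 0.0688, 0.0677, 0.0741 and 0.0798 in that order) and with array medians centred (0.69, adjusted p = 0.0598), and it held in 5 of 16 alternatives. The second Gys1 probe set, 1450196_s_at, was not called (0.97, adjusted p = 0.285).

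Gbe1 and Ugp2 had higher means with IL-4 in every comparison, none of which met both criteria in the tested ones. Gbe1 had a mean ratio of 1.22 ± 0.0377 with IL-4 and RSG in Pparg fl/- cells, against 0.999 ± 0.140 in control cells with RSG (SD, n = 3). In Pparg+/- cells it averaged 1.07 ± 0.129 with IL-4 and RSG, against 0.797 ± 0.0794 in control cells with RSG (SD, n = 3). The log2 changes of Gbe1 were 0.30 ± 0.17 and 0.42 ± 0.17 in these comparisons (SE), with limma adjusted p of 0.271 and 0.111. Those of Ugp2 were 0.23 ± 0.11 in Pparg fl/- cells and 0.29 ± 0.11 in Pparg+/- cells (SE), with limma adjusted p of 0.165 and 0.0775. The 5 Ugp2 probe sets had group means between 0.710 and 1.36, and the size of the difference depended on the set. In Pparg+/- vehicle cultures the means with and without IL-4 were 1.11 and 0.853 for the set used. They were 1.36 and 0.844 for 1426461_at, and 1.05 and 0.710 for 1426460_a_at. In Pparg fl/- vehicle cultures they were 1.15 and 0.867, 1.05 and 0.953, and 1.25 and 0.823 in that order. Gyg, the self-glucosylating primer, had group means from 0.941 to 1.06 over all 8 groups, and its log2 change with IL-4 and RSG was -0.05 ± 0.10 in Pparg fl/- and -0.10 ± 0.10 in Pparg+/- cells (SE). In the vehicle cultures the changes in Pparg fl/- and Pparg+/- cells were 0.80 and 0.69 for Gys1, 0.34 and 0.49 for Gbe1, 0.41 and 0.38 for Ugp2, and -0.12 and -0.06 for Gyg. The second Gys1 probe set changed by only 0.10 in Pparg fl/- vehicle cultures, with ratios of 1.67, 1.05 and 0.330 with IL-4. The array of mouse 4 with IL-4 and vehicle was the lowest of its group for Gbe1, at 0.842 beside 1.5 and 1.35 in mice 5 and 6, and without that array the Gbe1 change in Pparg fl/- vehicle cultures was 0.59.

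Both phosphorylases had lower ratios with IL-4 in every comparison, and in Pparg fl/- cells with RSG both passed the test. Pygb, known as the brain isoform, had ratios of 0.749, 0.701 and 0.698 with IL-4 and RSG in Pparg fl/- cells, against 1.49, 1.31 and 1.43 in control cells with RSG. Pparg+/- cells had Pygb ratios of 0.840, 0.671 and 0.718 with IL-4 and RSG, against 1.05, 0.905 and 1.03 in control cells with RSG. No arrays overlapped in either genotype. Its log2 change was -0.98 ± 0.19 in Pparg fl/- cells (limma adjusted p = 0.0010) and -0.42 ± 0.19 in Pparg+/- cells (adjusted p = 0.155), and the genotypes differed in this change by -0.55 ± 0.27 (SE), with an adjusted p of 1. The fall of Pygb in Pparg fl/- cells was called in 16 of 16 alternatives.

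Pygl, known as the liver isoform, had ratios of 0.762, 0.712 and 0.766 with IL-4 and RSG in Pparg fl/- cells, against 1.01, 1.15 and 1.64 in control cells with RSG. Pparg+/- cells had Pygl ratios of 1.00, 0.656 and 0.683 with IL-4 and RSG, against 1.22, 1.06 and 1.24 in control cells with RSG. IL-4 arrays lay below control arrays in both genotypes. Its log2 change was -0.73 ± 0.22 in Pparg fl/- cells (limma adjusted p = 0.0268) and -0.61 ± 0.22 in Pparg+/- cells (adjusted p = 0.0720, and 0.0166 with the mouse as a block, which made it a call). Centring the array medians also made the Pparg+/- change a call (-0.71, adjusted p = 0.0262). Without mouse 3, 5 or 6 the Pparg fl/- call was lost, with adjusted p of 0.0604, 0.128 and 0.225 in that order. It was also lost with only the compared groups fitted (adjusted p = 0.0950) and with the methods' t-test (adjusted p = 0.141), and held in 11 of 16 alternatives. With vehicle, the changes in Pparg fl/- and Pparg+/- cells were -0.75 and -0.84 for Pygl, the first of which was -0.64 without the array of mouse 4, and -1.10 and -0.70 for Pygb.

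**Figure D2:**
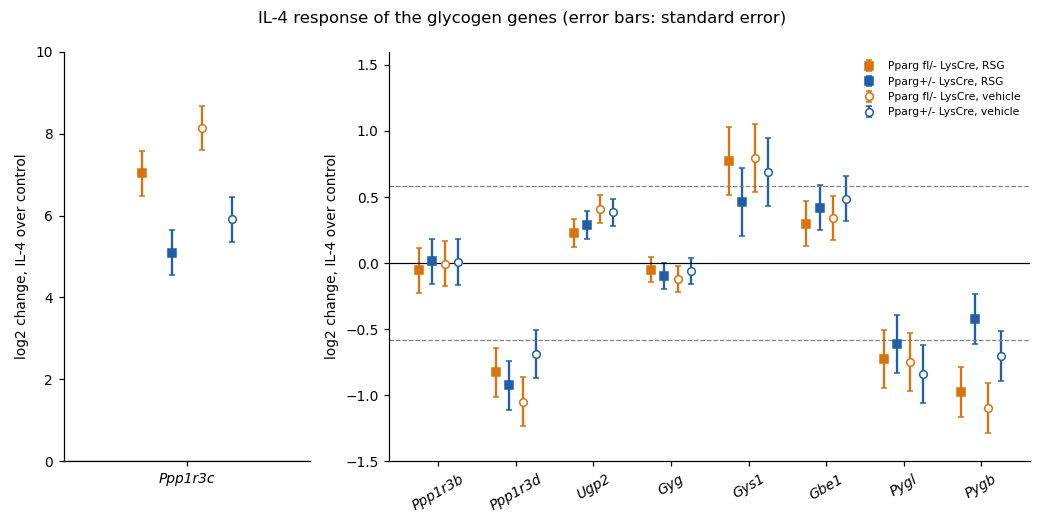
Log2 change with IL-4 over control for Ppp1r3c (left, own axis) and the other 8 genes (right), with RSG (filled squares) or vehicle (open circles) in Pparg fl/- LysCre (orange) and Pparg+/- LysCre (blue) cells; bars are SE and dashed lines mark 1.5-fold. With the probe set that stood for each gene, Ppp1r3c lies between 5.10 and 8.15, and the other genes between -1.10 and 0.80.

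Besides Ppp1r3c, whose rise chose the list and which was past the threshold in all 4 comparisons, 4 of the other 8 members were called with IL-4 and RSG in Pparg fl/- cells, Gys1 higher and Ppp1r3d, Pygl and Pygb lower, where 16.4% of all genes were called, 8.72% higher and 7.65% lower. In Pparg+/- cells 1 of these 8 was called, Ppp1r3d, which was lower, where 14.5% of all genes were called, 7.71% higher and 6.78% lower. With vehicle, 5 of all 9 were past the threshold in Pparg fl/- cells (all genes: 18%, with 9.75% higher and 8.24% lower) and 4 of 9 in Pparg+/- cells (all genes: 16.6%, with 9.34% higher and 7.23% lower), and since the list came from this contrast nothing is read from these counts. Single mice moved the counts over all 9: in Pparg fl/- cells 3 were past the threshold with RSG without mouse 3, 4, 5 or 6, and 3 with vehicle without mouse 5 or 6, and in Pparg+/- cells with vehicle 1 was without mouse 2 or 3. The median change of the members with IL-4 and RSG was -0.05 in Pparg fl/- cells and 0.01 in Pparg+/- cells, beside 0.11 over all genes in either genotype. The share of called genes that were higher depended on scaling: in Pparg+/- cells it was 53.2% with RSG and 56.4% with vehicle, and 41.6% and 45.4% with array medians centred. With the probe set that stood for each gene, the log2 changes of Ppp1r3c were 5.10 or more. Those of the other 8 members lay between -1.10 and 0.80, with both signs among the called genes. The second sets of Ppp1r3c and Gys1 each gave a value outside these ranges, as stated above.

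Between RSG and vehicle no member was called. The change of Ppp1r3c in IL-4-treated Pparg+/- cells had the lowest p of the members and is given as a description. In IL-4-treated Pparg+/- cells its ratios were 1.83, 1.72 and 2.95 with RSG, against 7.53, 6.54 and 11.2 with vehicle. Each RSG array lay below each vehicle array, and within mice 1, 2 and 3 the ratio with RSG was 4.11-fold, 3.79-fold and 3.78-fold lower. The log2 change was -1.96 ± 0.54 (SE), with an unadjusted limma p of 0.0019 and an adjusted p of 0.215, or 0.0886 with the mouse as a block. In IL-4-treated Pparg fl/- cells the ratios were 10.5, 12.0 and 15.6 with RSG, against 12.6, 18.1 and 17.8 with vehicle, a log2 change of -0.35 ± 0.54 (SE) with an adjusted p of 1 and overlapping arrays. The difference of the RSG response, Pparg fl/- minus Pparg+/-, was 1.61 ± 0.76 (SE), with an unadjusted p of 0.0486, an adjusted p of 1 and an interval of 0.01 to 3.22 (95%). The vehicle arrays with IL-4 in these comparisons also entered the choice of Ppp1r3c. These tests are therefore not independent of that choice, and nothing is read from their p-values. Its second probe set gave within-mouse ratios of 0.175, 0.961 and 0.716 for RSG over vehicle in IL-4-treated Pparg+/- cells, so that mouse 2 showed almost no difference there.

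**Figure D3:**
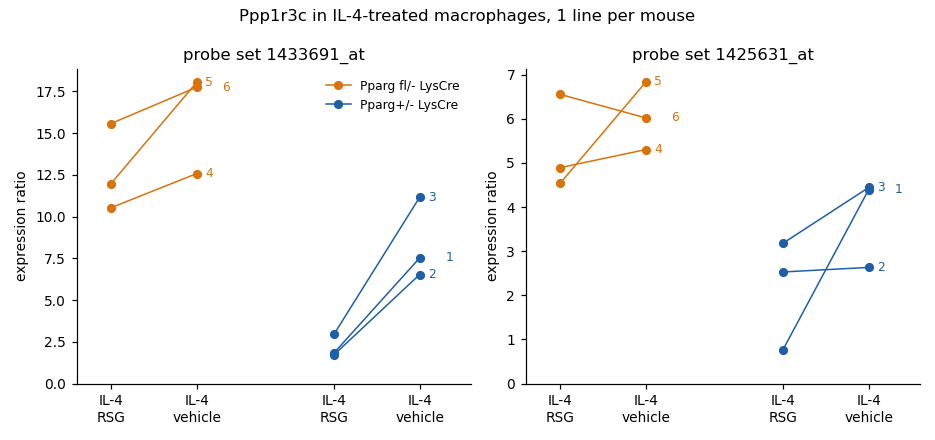
Expression ratio of Ppp1r3c in IL-4-treated cultures of each mouse, with RSG left and vehicle right and a line joining the cultures of 1 mouse, for both probe sets (numbers are mice). For probe set 1433691_at the 3 Pparg+/- mice lie between 1.72 and 2.95 with RSG and between 6.54 and 11.2 with vehicle, and the Pparg fl/- mice between 10.5 and 15.6 and between 12.6 and 18.1.

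None of the 9 members was called with RSG in any of the 4 comparisons by limma, nor by the methods' t-test. Of all genes, 0.276% were called with IL-4 in Pparg+/- cells, 0.0169% with IL-4 in Pparg fl/- cells, 0.0169% without IL-4 in Pparg+/- cells and 0% without IL-4 in Pparg fl/- cells. Ppp1r3c aside, 1 member had an unadjusted p under 0.05 in each Pparg+/- comparison and 0 in each Pparg fl/- comparison. Of all genes, 8.5% with IL-4 and 5.63% without did in Pparg+/- cells, and 4.85% and 4.16% in Pparg fl/- cells. Ppp1r3c, whose vehicle arrays entered its choice, was also under 0.05 in each Pparg+/- comparison, and nothing is read from that. With IL-4 the member was Ppp1r3d, with ratios of 0.681, 0.521 and 0.629 with RSG, against 1.00, 0.750 and 0.697 with vehicle. Its log2 change was -0.41 ± 0.18 (SE, limma adjusted p = 0.648). Without IL-4 the member was Pygb (-0.40 ± 0.19, SE, limma adjusted p = 0.935), and Ppp1r3c changed by -1.15 ± 0.54 (SE, limma adjusted p = 0.936). Pygb had ratios of 1.05, 0.905 and 1.03 with RSG in these control cells, against 1.16, 1.39 and 1.39 with vehicle. The Pparg+/- arrays of Ppp1r3b did not overlap between RSG and vehicle, with or without IL-4. In Pparg+/- cells the same held for Ppp1r3c, Ppp1r3d and Ugp2 with IL-4 and for Pygb without. In Pparg fl/- cells it held for Gyg with IL-4 (higher with RSG) and for Pygb without (lower). The share of all genes without overlap was not counted, and nothing is read from these cases. Ratios of Ppp1r3b in Pparg+/- cells lay between 0.805 and 0.897 with IL-4 and RSG, against 0.968 and 1.03 with IL-4 and vehicle. Its log2 change was -0.25 ± 0.17 with IL-4 and -0.26 ± 0.17 without (SE), with limma adjusted p of 0.848 and 1. No difference of the RSG response between IL-4 and control cells was called for a member, where 0% of genes in Pparg fl/- and 0.00564% in Pparg+/- cells were called, and 0 members had an unadjusted p under 0.05, beside 3.94% and 5.22% of all genes.

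Between genotypes, Ppp1r3c was the 1 member called, in 1 of 4 comparisons. With IL-4 and RSG it was 5.95-fold higher in Pparg fl/- cells, at 10.5, 12.0 and 15.6, against 1.83, 1.72 and 2.95 in Pparg+/- cells. The lowest Pparg fl/- array was above the highest Pparg+/- array. The log2 difference was 2.57 ± 0.54 (SE), with a limma adjusted p of 0.0399. Ppp1r3c was picked for its IL-4 rise with these data known, so this test is not independent of that choice. Among all genes 0.739% were called here, 0.637% higher and 0.101% lower, and 1 of the 9 members. Leaving out mouse 1, 2, 3, 5 or 6 ended this call, with adjusted p of 0.163, 0.212, 0.110, 0.223 and 0.163 in that order, while the log2 difference stayed between 2.42 and 2.82. The second probe set differed by 1.52 (adjusted p = 0.545), with ratios of 4.89, 4.54 and 6.55 in Pparg fl/- cells, against 0.769, 2.53 and 3.18 in Pparg+/- cells. Pparg itself was 2.45-fold higher in Pparg fl/- cells in the same comparison (1.29 ± 0.26, SE, limma adjusted p = 0.0316), but with mouse 1, 2, 3, 5 or 6 left out its adjusted p was 0.109 to 0.201. Of the 9 neutrophil markers 1, Mmp8, was called there (1.18, adjusted p = 0.0101), while the median of the list was -0.38, and in IL-4-treated Pparg+/- cells with RSG over vehicle Mmp8 was again the 1 called (-1.08, adjusted p = 0.0182), with a list median of 0.01. Both Mmp8 calls were lost without mouse 1, 2, 3 or 6, and the one between genotypes also without mouse 5. The part of Pparg and of these markers in the result was not tested. Over all genes, the number called between genotypes with IL-4 and RSG was 131, and it was 5, 7, 24, 5 and 12 without mouse 1, 2, 3, 5 and 6 in that order, and 0 with the methods' t-test or with only the compared groups fitted.

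With IL-4 and vehicle, Ppp1r3c was 1.94-fold higher in Pparg fl/- than in Pparg+/- cells, with a limma adjusted p of 0.621, and its arrays did not overlap (12.6 to 18.1 against 6.54 to 11.2). No member was called between genotypes with IL-4 and vehicle or in either control condition, where 0.00564%, 0.00564% (RSG) and 0% (vehicle) of genes were. At an unadjusted p under 0.05 there were, Ppp1r3c aside, 0, 1 and 0 members, beside 9.83%, 11% and 11.1% of all genes. The 1 with RSG alone was Pygb, at 1.49, 1.31 and 1.43 in Pparg fl/- cells, against 1.05, 0.905 and 1.03 in Pparg+/- cells, a log2 difference of 0.51 ± 0.19 (SE) with an adjusted p of 0.445. Ppp1r3c, whose vehicle arrays entered its choice, was under 0.05 with vehicle alone, at its low control level. Its log2 difference there was -1.28 ± 0.54 (SE), with a limma adjusted p of 0.489. For the other 8 members limma called no genotype difference in how they responded to IL-4, where 0.0113% of all genes were called with RSG and 0% with vehicle. At an unadjusted p under 0.05 there were 0 of the 8 in either, beside 4.71% and 4.9% of all genes.

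Other genes of glycogen metabolism came from a list of 24, of which 23 were measured. With IL-4 and RSG, 0 rose and 2 fell in Pparg fl/- cells, where 8.72% of all genes rose and 7.65% fell, and 1 rose and 2 fell in Pparg+/- cells, where 7.71% rose and 6.78% fell, with median changes of 0.17 and 0.14 beside 0.11 over all genes. Pgm2l1, which makes the glucose 1,6-bisphosphate that phosphoglucomutases need, fell by 2.15 and 1.86 on the log2 scale in Pparg fl/- and Pparg+/- cells (limma adjusted p of 5.5e-07 and 3.8e-06). Its group means were 0.422 ± 0.0720 with IL-4 and RSG, against 1.89 ± 0.430 in control cells with RSG, in Pparg fl/- cells (SD, n = 3). Phka1, a regulatory subunit of phosphorylase kinase, which activates the phosphorylases, fell by 1.42 and 0.86 (adjusted p of 0.0010 and 0.0393), and its call in Pparg+/- cells was lost without mouse 1, 2, 3 or 5 and with the mouse as a block (adjusted p = 0.0635). Nhlrc1, the ubiquitin ligase malin that acts on glycogen-associated proteins, was called in Pparg+/- cells (0.65 ± 0.17, SE, adjusted p = 0.0152), but not without mouse 1 or 3 (adjusted p of 0.176 and 0.129). The muscle phosphorylase Pygm was called with vehicle in Pparg+/- cells, with ratios of 1.83 to 2.66 with IL-4, against 0.365 to 0.628 in control cells, and a log2 change of 2.27 ± 0.77 (SE, adjusted p = 0.0478) that kept its call in 7 of 15 alternatives. It was not called in the other 3 IL-4 comparisons, where its changes were 0.30 to 0.78, and its replicates ran from 0.366 to 3.99 in Pparg fl/- cells with IL-4 and RSG. None of the 4 further Ppp1r3 targeting subunits on the list and none of the 3 PP1 catalytic subunits was called in these comparisons.

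Genes that supply, move or break down glucose 6-phosphate gave calls in both directions. Of 8 measured, 4 rose and 1 fell with IL-4 and RSG in Pparg fl/- cells (all genes: 8.72% and 7.65%), and 2 rose and 2 fell in Pparg+/- cells (all genes: 7.71% and 6.78%). Slc2a1, the glucose transporter GLUT1, rose by 1.00 ± 0.14 in Pparg fl/- and 1.04 ± 0.14 in Pparg+/- cells (log2, SE), and G6pc3, a glucose 6-phosphatase, rose by 0.93 ± 0.14 and 0.84 ± 0.14 (limma adjusted p from 5.1e-05 to 0.00036). Hexokinase 2 (Hk2) and the glucose 6-phosphate transporter Slc37a4 rose in Pparg fl/- cells, by 0.96 and 0.82. Slc2a3, the transporter GLUT3, fell by 1.34 and 1.68 in Pparg fl/- and Pparg+/- cells. Slc2a6, a further member of the transporter family, was the only gene of the 3 pathway lists called with RSG over vehicle. In IL-4-treated Pparg+/- cells it averaged 0.280 ± 0.0845 with RSG, against 0.860 ± 0.192 with vehicle (SD, n = 3), a log2 change of -1.64 ± 0.29 (SE, limma adjusted p = 0.0225), and with IL-4 and RSG it was 3.54-fold higher in Pparg fl/- than in Pparg+/- cells (adjusted p = 0.0103). Without mouse 1, 2, 3, 5 or 6 the RSG call of Slc2a6 was lost (adjusted p of up to 0.251), and without mouse 2, 3, 5 or 6 the genotype call (0.0573 to 0.151), and both were lost with the methods' t-test and with only the compared groups fitted. Of 5 measured genes around UDP-glucose, P2ry14, a receptor for extracellular UDP-sugars, was the 1 called, and it rose by 1.05 in Pparg fl/- and 1.20 in Pparg+/- cells, the first of which was 0.80 with an adjusted p of 0.0809 without mouse 4.

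**Figure D4:**
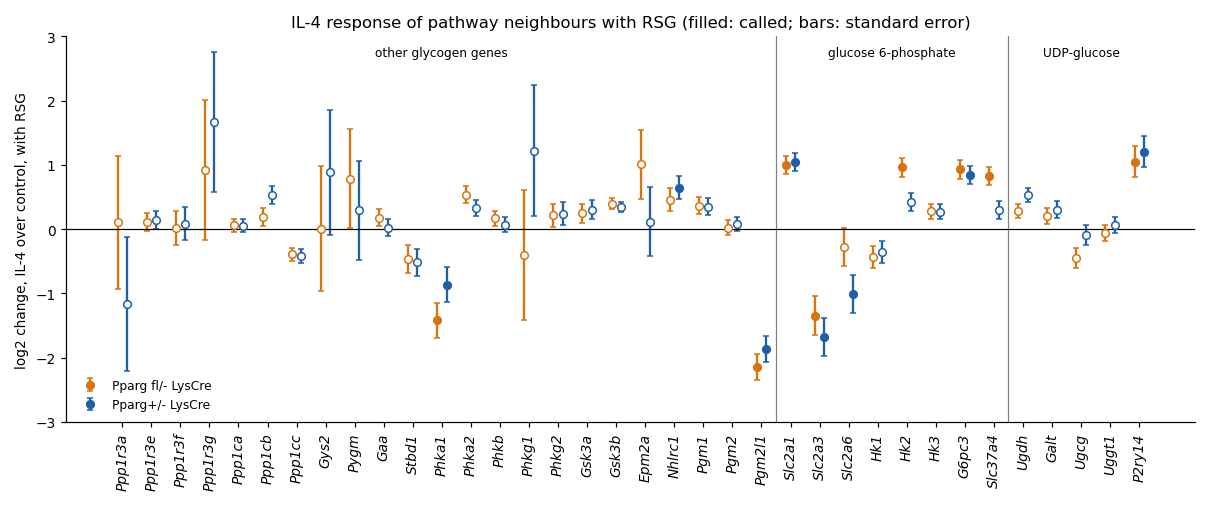
Log2 change with IL-4 over control, both with RSG, in Pparg fl/- LysCre (orange) and Pparg+/- LysCre (blue) cells. Shown are 23 other glycogen genes, 8 genes that supply, move or break down glucose 6-phosphate and 5 around UDP-glucose. Filled points were called and bars are SE. The lowest points are those of Pgm2l1, at -2.15 and -1.86.

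Over the 24 arrays, the 5 genes whose log2 ratios correlated most highly with Ppp1r3c were Ccl24, an eosinophil chemokine (Pearson r of 0.987), Gpr65, an acid-sensing receptor (0.985), Myo1e, a myosin (0.981), Pde4b, a cyclic AMP phosphodiesterase (0.981), and Nfil3, a transcription factor (0.981). Among the members r was 0.84 for Ugp2, 0.74 for Gys1, 0.71 for Gbe1, 0.07 for Ppp1r3b, -0.36 for Gyg, -0.79 for Pygb, -0.79 for Pygl and -0.82 for Ppp1r3d. Pgm2l1 stood at -0.98. These values describe arrays that share mice and, in sets of 12, the IL-4 treatment, and nothing about function or control is read from them. Ranked among all genes, Ugp2 was at place 1553 and Gys1 at 2547.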

How the data were processed

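RNA of 24 macrophage cultures was measured on Affymetrix whole-genome mouse arrays, 1 per culture. The authors deposited linear ratios: their GC-RMA signals, from GeneSpring 7.3, had been divided by the 50th percentile of the array and by the median of the probe set. A last division by the vehicle control, named in the methods, is not apparent in the values. GCOS stands in the submitters' processing notes, but the sources used here give neither its version nor a genome build. The table held 45101 probe sets, of which 64 controls were dropped. A probe set had to reach the array median on 3 arrays or more, and 43349 did while 1688 did not. Symbols came from the platform annotation updated by gene identifier (34945 probe sets with 1 symbol, 932 with several, not named, and 9160 with none).

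Log2 ratios were analysed in limma 3.58.1 (R 4.3.3) for 17 comparisons, by a model of 8 group means with a mean-variance trend. The ratios were divided by the median of the probe set, so the trend does not follow signal level. Without the trend Gys1 lost its call with IL-4 and RSG in Pparg fl/- cells (limma adjusted p = 0.0513). Pygm lost its call with IL-4 and vehicle in Pparg+/- cells (limma adjusted p = 0.0580). No other call of a member changed. The fit was tested on simulated data. Array number limits the precision. Cultures with the same number came from the same mouse per the labels, so the numbers pair samples. Correlations of the deviations of same-mouse arrays lay between -0.057 and 0.044 over 36 pairs, and the model has no block because the methods name none. Alternatives were a floor of 0.05, centred or quantile-normalized arrays, no filter, the mouse as a block, no trend, fits of the compared groups alone, the methods' t-test (equal variances, Benjamini-Hochberg), leaving out each mouse or 1 array, and another probe set for a gene. All members, every called gene of the other lists and the 5 genes nearest to Ppp1r3c could be named. Members and lists were chosen with earlier results of these data known. Promoters came from RefSeq (GRCm38.p6).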

Additional observations from a re-analysis of the deposited data

Results flagged for a closer look

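In control cells, the direction of the Ppp1r3c response to RSG was opposite between the genotypes in every mouse: RSG over vehicle was 2.10, 1.66 and 1.43 within the 3 Pparg fl/- mice and 0.307, 0.742 and 0.402 within the 3 Pparg+/- mice. The mean log2 within-mouse ratio differed by 1.92, Pparg fl/- minus Pparg+/-. This difference was not tested, and it lies at the low control level of Ppp1r3c, where ratios ran from 0.0249 to 0.276. The second probe set did not repeat it, with RSG over vehicle of 1.05, 0.939 and 1.93 in Pparg fl/- and 0.145, 0.403 and 9.17 in Pparg+/- mice. No other member had opposite directions in every mouse in the RSG or IL-4 comparisons, and groups of 3 arrays are too small for the check of single arrays far from the rest.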

How the results depend on the processing

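The number of members past the threshold with IL-4, Ppp1r3c among them, fell to 1 in Pparg+/- vehicle, 1 in Pparg fl/- vehicle and 3 in Pparg fl/- RSG cultures with the methods' t-test, and to 1, 2 and 2 when only the compared groups were fitted; between genotypes with IL-4 and RSG it was 0 in both. Leaving out 1 mouse or the array of mouse 4 gave 1 to 4, 3 to 5, 3 to 5 and 0 to 1 members in that order. The genotype difference of Ppp1r3c with IL-4 and RSG stayed at 2.57 in both of those fits. Its SE was 2.48 in the compared groups alone (adjusted p = 0.680) and 0.296 with the methods' t-test (adjusted p = 0.179). Both used the same arrays, so the larger SE is not a wider spread of the replicates. The difference ranged from 2.42 to 2.82 without 1 mouse or array. With the mouse as a block it was 2.57 (adjusted p = 0.0362). Besides Pygl with IL-4 and RSG in Pparg+/- cells, the block made Gys1 a call with IL-4 and vehicle in Pparg+/- cells (5 members called). It changed no other call of a member. On the other lists it ended the Pparg+/- calls of Phka1 with IL-4 and RSG (adjusted p = 0.0635) and Pygm with IL-4 and vehicle (0.0503). The change of Ppp1r3c with RSG in IL-4-treated Pparg+/- cells kept its sign and stayed uncalled in 16 of 16 alternatives, from -2.13 to -1.92, with adjusted p from 0.0886 to 0.829. That range rests on 1 probe set, and the second gave -1.02 ± 0.89 (SE, adjusted p = 0.912). The cause of these dependences was not tested. No called change of a member or of a gene of the other lists changed sign under the alternatives run, which were added after seeing the data for the genes of the other lists. Changes near 0, such as those of Ppp1r3b and Gyg, were not followed. With 3 mice per genotype and ratios that hide the signal over background, modest changes such as those of Gbe1 and Ugp2 could not be settled.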
